A study of Mus musculus with 12 samples.

Results

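The 45 genes described here encode secreted signals of the Wnt, Fgf, Bmp and Hedgehog pathways, together with some of the antagonists, receptors and effectors that act on them. They were taken by name from the pathways, out of 21887 protein-coding genes of the RefSeq mouse table. The rule uses no measured value, but the list was chosen with earlier results of these data known. By role they are 18 Wnt ligands, 4 Wnt antagonists, 2 Wnt receptors, 7 Fgf ligands, 6 Bmp and Gdf ligands, 3 Hedgehog ligands and 5 Hedgehog receptors and effectors. Chromatin immunoprecipitation with sequencing (ChIP-seq) had been done for H3K27me3 and for H3K4me3 in bone marrow cells that lack lineage markers and carry cKit, a sorted fraction that contains the blood stem and progenitor cells. The mice were C57BL/6, with 2 WT (WT_407, WT_409) and 2 Ints11 conditional knockouts (KO_399, KO_401). Littermates of both genotypes received poly(I:C) and were sampled 4 days later. The KO mice were Ints11 flox/flox and carried Mx1Cre, whose promoter answers to interferon. Cre is thus switched on by poly(I:C) in blood cells and in other interferon-responsive cells, and no label gives the share of cells in which Ints11 had been deleted. Ints11 is the endonuclease of the Integrator complex. The numbers in the labels are read as mice. A permutation p-value over 4 libraries is the share of the 6 labelings whose difference of means is at least as large as the one seen. It covers only these libraries. No label gives the age of the mice. Where 4 values follow each other without names, they are for WT_407, WT_409, KO_399 and KO_401, in that order.

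Wnt ligands are lipid-modified proteins that bind Frizzled receptors and stabilise beta-catenin, and secreted Frizzled-related proteins and Dkk1 restrain them. Fgf ligands act through receptor tyrosine kinases, and Bmp and Gdf ligands through receptor serine/threonine kinases that activate Smad proteins. Hedgehog ligands bind Ptch1, which otherwise holds the pathway off, and the Gli transcription factors carry the signal to the nucleus. Many of these genes drive patterning of the embryo and are silent in most adult blood cells, where Polycomb repressive complexes keep them under H3K27me3. H3K4me3 marks active promoters, and a promoter that holds both marks is called bivalent.

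Each mark of each mouse had its own list of peaks, and no reads. The value used is the number of bases under a listed peak within 5 kb of the span of a gene, in mm10 coordinates, given in base pairs (bp). Over the genome the H3K27me3 lists held 6542 to 11930 peaks and covered 34.5, 31.5, 15.2 and 23.1 Mb. H3K4me3 peaks covered 36.7 to 44.5 Mb. KO_399 had the smallest H3K27me3 cover and the largest H3K4me3 cover over the whole genome. The background per position recovered from the lists, proportional to depth at a given fragment length, was 3.09 and 3.16 reads in the WT and 3.30 and 3.67 in the KO libraries of H3K27me3. For H3K4me3 it ran from 1.93 to 2.65 reads, and it was highest in KO_399. Every listed peak had an authors' fold over background above 5, so a gene without a listed peak may carry a weaker one. Of the 8 progenitor markers (Kit, Cd34, Gata2 and others), all 8 had H3K4me3 in each library. Cover at markers of other cell types differed between libraries. The mean H3K4me3 cover of 7 B lymphoid markers was 1679, 4578, 3092 and 1837 bp. At 6 erythroid markers it was 734, 1568, 915 and 761 bp, and both sets were highest in WT_409. At 6 stromal markers it was 726, 752, 1644 and 907 bp, and at 5 endothelial markers 1159, 1038, 2173 and 1127 bp, both highest in KO_399. All 7 granulocyte markers had H3K4me3 in every library (5931, 8507, 7635 and 6942 bp on average), as did 4 of 6 T lymphoid and 3 to 4 of 5 endothelial markers. The T cell genes Cd3e and Cd8a and the endothelial gene Emcn had none in any library. The part of these other cells in the results was not tested, and fewer cells with a mark cannot be told apart from less of the mark per cell.

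RefSeq promoter sequences (GRCm38.p6), running from 250 bases before to 50 bases after a transcription start, were matched to 34 of the 45 genes, with 37 starts in all. The H3K27me3 cover of the group was centred on these starts. A peak lay over the start in all 4 libraries at 33 of 37 starts (89.2%), against 57.7% of the starts of all genes with H3K27me3 in every library. Of the other 4, the inner 2 starts of Wnt5b and the start of Wnt8b had no H3K27me3 in any library, and Ptch1 had it in 3. H3K4me3 was the rarer mark at the starts: it lay over 6 of 37 (16.2%) in all 4 libraries, against 42.4% for genes with H3K27me3 in every library and 53.5% for all genes. The 6 were 1 start each of Wnt5b, Wnt11, Fgf18, Hhip, Ptch1 and Gas1. No H3K4me3 peak lay over 19 of the starts in any library. Promoters of 3 genes without any H3K4me3 in their window and of 3 with H3K4me3 at the start in every library are shown so that the base composition of both kinds can be compared. Each is written 5′ to 3′ on the strand of the gene, with every CpG (the letters CG, the same on both strands) in capitals.
Wnt1 promoter, chr15:98789607-98789906, plus strand: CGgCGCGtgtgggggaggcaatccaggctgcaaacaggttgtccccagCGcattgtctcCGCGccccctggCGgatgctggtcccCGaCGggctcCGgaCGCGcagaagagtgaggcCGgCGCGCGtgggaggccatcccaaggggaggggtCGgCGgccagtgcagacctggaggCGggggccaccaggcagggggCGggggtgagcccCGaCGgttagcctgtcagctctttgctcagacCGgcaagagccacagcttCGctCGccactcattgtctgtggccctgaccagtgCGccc
Fgf4 promoter, chr7:144861136-144861435, plus strand: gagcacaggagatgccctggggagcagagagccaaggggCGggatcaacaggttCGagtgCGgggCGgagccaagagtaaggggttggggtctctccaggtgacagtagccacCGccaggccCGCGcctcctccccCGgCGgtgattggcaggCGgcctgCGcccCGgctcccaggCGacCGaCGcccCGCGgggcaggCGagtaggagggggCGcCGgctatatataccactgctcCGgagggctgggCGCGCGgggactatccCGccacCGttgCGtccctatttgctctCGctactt
Sfrp5 promoter, chr19:42202203-42202502, minus strand: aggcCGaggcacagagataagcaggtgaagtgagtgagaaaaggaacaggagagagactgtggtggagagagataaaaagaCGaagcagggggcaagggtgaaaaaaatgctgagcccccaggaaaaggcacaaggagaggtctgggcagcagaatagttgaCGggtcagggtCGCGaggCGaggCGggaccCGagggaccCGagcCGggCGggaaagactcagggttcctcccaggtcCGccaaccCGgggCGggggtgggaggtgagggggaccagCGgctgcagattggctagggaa
Hhip promoter, chr8:80057959-80058258, minus strand: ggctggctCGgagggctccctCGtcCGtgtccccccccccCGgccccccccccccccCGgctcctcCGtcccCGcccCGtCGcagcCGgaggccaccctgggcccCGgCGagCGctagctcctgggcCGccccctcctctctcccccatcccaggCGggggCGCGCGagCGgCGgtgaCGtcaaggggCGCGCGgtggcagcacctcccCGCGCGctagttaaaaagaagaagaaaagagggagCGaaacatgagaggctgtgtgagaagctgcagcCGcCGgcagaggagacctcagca
Ptch1 promoter, chr13:63565686-63565985, minus strand: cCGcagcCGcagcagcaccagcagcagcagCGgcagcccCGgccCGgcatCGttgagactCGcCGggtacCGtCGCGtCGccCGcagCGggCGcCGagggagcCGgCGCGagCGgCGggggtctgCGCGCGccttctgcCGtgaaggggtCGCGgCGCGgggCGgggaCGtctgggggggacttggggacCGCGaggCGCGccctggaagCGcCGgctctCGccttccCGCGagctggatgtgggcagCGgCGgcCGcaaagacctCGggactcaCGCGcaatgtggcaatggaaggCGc
Gas1 promoter, chr13:60177486-60177785, minus strand: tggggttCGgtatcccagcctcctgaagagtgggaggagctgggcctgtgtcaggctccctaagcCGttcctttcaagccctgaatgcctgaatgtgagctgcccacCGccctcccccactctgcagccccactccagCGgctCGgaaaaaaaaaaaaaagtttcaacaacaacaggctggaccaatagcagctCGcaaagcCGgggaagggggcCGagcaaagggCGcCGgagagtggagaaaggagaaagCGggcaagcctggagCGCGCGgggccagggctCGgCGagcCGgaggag
Wnt1, Fgf4 and Sfrp5 hold 26, 28 and 15 CpG in these 300 bases, and Hhip, Ptch1 and Gas1 hold 30, 47 and 17. The signalling promoters were rich in CpG as a group, with a median of 27 (4 to 58) against 13 over 21263 promoters of protein-coding genes. At least 20 CpG were present in 64.9% of the 37 and in 35.9% of all promoters. Among the 37, the median was 38.5 CpG where H3K4me3 lay over the start in all 4 libraries, 28.5 where it did so in 1 to 3, and 24 where it did so in none. The ranges of these 3 sets overlapped, at 17 to 47, 7 to 58 and 4 to 51 CpG. Gas1 and Fgf4 show the overlap, since Gas1 has the mark with 17 CpG and Fgf4 lacks it with 28.

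All 45 genes had H3K27me3 in all 4 libraries, against 19% of the 21887 protein-coding genes. The 45 were listed with earlier results of these data known, so this count may follow from that choice, which was not tested. Of a further 118 genes of the same pathways, described at the end, 70 had the mark in all 4 libraries. None of the 45 genes lost H3K27me3 from the KO lists, but the covered stretch was shorter there. Mean cover per gene was 9831, 8989, 5700 and 7598 bp. This is 9410 ± 595 bp in WT and 6649 ± 1342 in KO (mean ± SD, n = 2 each), or 70.7% of WT (two-sided exact permutation test, p = 0.333, the smallest that 2 against 2 allows). Both KO libraries had fewer bases than both WT libraries at 36 of the 45 genes, none had more in KO, and the libraries overlapped at 9. Over the 6512 genes with H3K27me3 in any library, 70% had fewer bases in both KO libraries and 0.0154% (1 gene) had more. Read against these shares, the signalling genes were close to the genome as a whole. Their median KO level was 71.9% of WT (48.8% to 97.9%), beside 67.7% for the 4150 genes with H3K27me3 in all 4 libraries, and in KO_401 alone the medians were 82.1% and 80.2%. KO_399 had the lowest cover at all 45 genes, and it was lowest alone at 72.8% of the 6512 genes with H3K27me3 in any library. These shares are not like for like. The 6512 include genes without the mark in some libraries, where KO_399 can tie with another library and is then not counted. Keeping only the strongest peaks of each list up to the same covered length reduced the difference of the means from 2761 to 604 bp and the count of 36 to 20, and without KO_399 the difference was 1812 bp. With an authors' fold of at least 10 required, it was 4948 bp, and 10 of the 45 genes then had H3K27me3 in all 4 libraries, while the KO_399 list held 555 peaks of the whole genome.

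**Figure D1:**
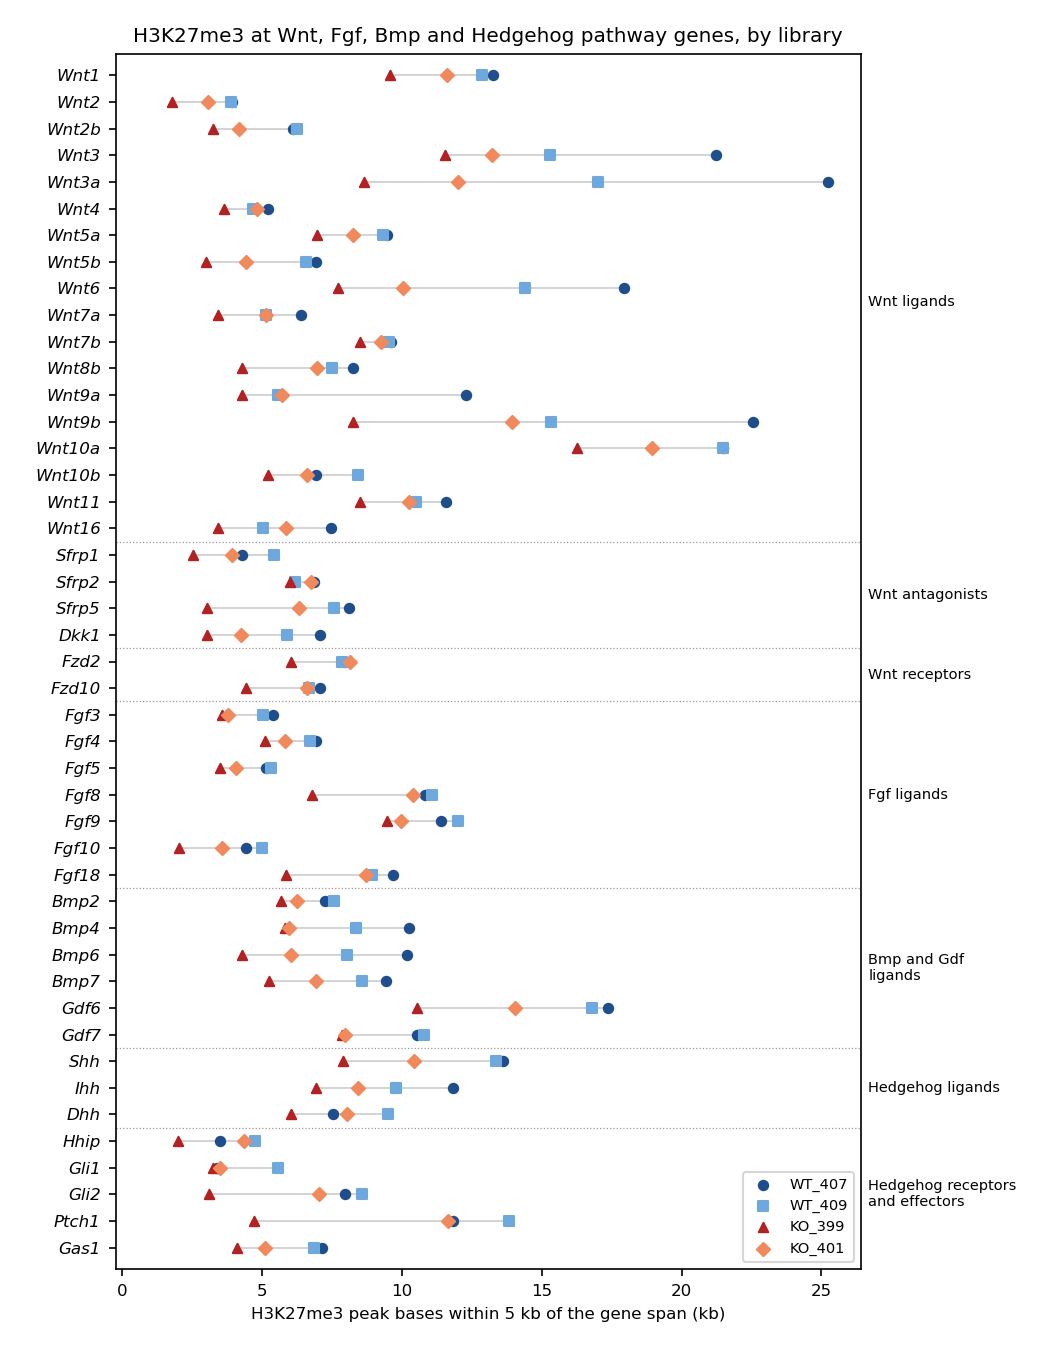
H3K27me3 peak bases (kb, x axis) within 5 kb of each of the 45 genes (y axis, grouped by role), with 1 point per library. The KO_399 triangle is the lowest point of every gene, and the KO_401 diamond lies above at least 1 WT point at 9 genes.

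Mean H3K27me3 cover of the 18 Wnt ligands was 11986 and 9927 bp in the WT libraries and 6558 and 8563 in KO_399 and KO_401, or 69.0% of WT, and 14 of the 18 had fewer bases in both KO libraries. Wnt3a, a beta-catenin activating ligand used in stem cell culture, had the lowest KO share of all 45 genes, at 48.8%. Its cover was 25239, 17012, 8636 and 12000 bp. Both KO libraries lay below both WT libraries, but KO_401 was nearer to WT_409 than WT_409 was to WT_407. Wnt6 followed the same order, with 17945, 14406, 7697 and 10045 bp (54.8% of WT), and Wnt9b with 22545, 15316, 8253 and 13943 bp (58.6%). Wnt5b, a ligand best known for signalling without beta-catenin, had 6928, 6552, 2975 and 4407 bp (54.8%), and Wnt2b had 6093, 6243, 3223 and 4150 bp (59.8%). The WT libraries were close to each other at both of these. At Wnt9a, with a KO share of 55.9%, WT_407 alone was high at 12290 bp, and the other 3 libraries had 5576, 4267 and 5720 bp. At the other end, Wnt7b, a ligand of lung and kidney development, kept 92.6% of its WT cover, with 9613, 9541, 8489 and 9248 bp. Wnt4, needed in kidney and female gonad development, had 5196, 4672, 3619 and 4826 bp (85.6%), and Wnt11 had 11570, 10510, 8508 and 10246 bp (84.9%). At all 3 of these genes KO_401 was close to or above the lower WT library, and KO_399 was below it. The other 7 Wnt ligands without a mention so far, leaving aside Wnt1 and Wnt10a, had KO shares of 61.9% (Wnt2) to 80.9% (Wnt5a), with Wnt7a and Wnt16 overlapping between genotypes.

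Wnt1, the founding ligand of the family, had the widest H3K27me3 peak of the 45 genes. That peak was 23686 and 22834 bp wide in the WT libraries, but the widest was 5466 bp in KO_399 and 8504 in KO_401. The cover of the Wnt1 window was 81.2% of WT, with 13235, 12850, 9574 and 11618 bp. This window holds 13974 bp and is shorter than the WT peak. It cuts the cover but not the peak width, so the falls in cover and in width are unlike measures. Within the window the mark was listed as 2 peaks in each WT library, 5 in KO_399 and 3 in KO_401. Breaks between listed peaks thus went with a shorter widest peak at Wnt1. More peaks than in both WT libraries were listed at 12 of the 45 genes in KO_399 and at 4 in KO_401. Both KO libraries had more peaks than both WT libraries at 3 genes and fewer at 5. The libraries overlapped at 37, so breaks like those at Wnt1 were not general. Over the 45 genes the mean number of H3K27me3 peaks per gene was 2.38, 1.96, 2.11 and 1.78. Peak numbers were not compared with those of other genes. Wnt10a, which acts in teeth and hair, had the third widest peak, with 11890, 12458, 7857 and 11352 bp, and kept 81.9% of its cover (21489, 21494, 16263 and 18943 bp). Wnt6 and Wnt10a are neighbours on chromosome 1 whose windows overlap by 3304 bp, and Wnt3 and Wnt9b on chromosome 11 overlap by 11098 bp. These pairs share peaks and are not independent. Merging them into 43 loci kept every direction and moved no count by over 1.5 times.

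Among the 4 Wnt antagonists, mean cover was 6571, 6259, 3634 and 5307 bp (69.7% of WT), and 3 had fewer bases in both KO libraries. Dkk1, which blocks the Lrp co-receptors, had 7067, 5871, 3010 and 4238 bp (56.0%). Sfrp5, a decoy that binds Wnt ligands, had 8102, 7558, 3006 and 6328 bp (59.6%), with KO_399 far below the rest. Sfrp2, another decoy of the same family, had the highest KO share of the 45 genes, at 97.9%. Its libraries overlapped, with 6833, 6180, 5990 and 6750 bp. Sfrp1 lay between these, at 66.3% of WT. The antagonists are the family whose direction depended most on the lists: with the same covered length in each list the KO level was 201.6% of WT. Of the 2 Frizzled receptor genes, Fzd2 kept 89.7%, with 7925, 7867, 6022 and 8136 bp, and KO_401 was the highest library there. Fzd10 kept 80.2%, with 7052, 6677, 4406 and 6610 bp. The mean of both was 85.3% of WT (exact permutation p = 0.667) and 117.6% with the same covered length, so the receptors did not separate by genotype.

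All 7 Fgf ligands had fewer H3K27me3 bases in both KO libraries. Their mean was 7672 and 7715 bp in WT and 5175 and 6610 in KO_399 and KO_401, or 76.6% of WT (exact permutation p = 0.333). The WT libraries were close to each other here, with WT_409 at 100.6% of WT_407. Fgf10, which is needed for limb and lung buds, had the lowest share, with 4425, 4975, 2004 and 3573 bp (59.3%). Fgf9, a ligand of lung and gonad development, held 1 peak of 11380 and 11995 bp in the WT libraries and of 9956 bp in KO_401, while the widest in KO_399 was 6577 bp. Its total cover was 11380, 11995, 9461 and 9956 bp (83.1%), the highest share of the 7. Fgf8, an organiser signal of the midbrain and limb, had a widest peak of 10803, 11061, 4888 and 8093 bp. Its total cover was 10803, 11061, 6782 and 10395 bp (78.6%). Fgf3, Fgf4, Fgf5 and Fgf18 had shares of 70.4% (Fgf3) to 80.1% (Fgf4).

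The 6 Bmp and Gdf ligands also had fewer bases in both KO libraries at every gene. Mean cover was 10823, 10016, 6554 and 7852 bp, or 69.1% of WT (exact permutation p = 0.333). Bmp6, which controls hepcidin and iron supply, had the lowest share, with 10174, 8019, 4257 and 6032 bp (56.6%). The other 5 ranged from 63.1% (Bmp4) to 80.2% (Bmp2). Gdf6, a ligand of joint formation, had the longest cover of the 6, at 17350, 16800, 10518 and 14021 bp (71.9%). With the same covered length in each list the 6 together stood at 100.3% of WT.

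For the Hedgehog ligands, mean cover was 10986, 10879, 6936 and 8944 bp (72.6% of WT). Shh, the ligand that patterns the neural tube and limb, had the second widest peak of the 45 genes, with 13605, 12961, 6581 and 10408 bp. Its total cover was 13605, 13346, 7875 and 10408 bp (67.8%). Ihh, the ligand of growing cartilage, was at 70.8% of WT. Dhh, the ligand of the testis and peripheral nerve, was at 82.5%, with libraries that overlapped. The 5 Hedgehog receptors and effectors had the lowest KO_399 level of any family, at 46.7% of WT, whereas KO_401 stood at 86.2%. Their mean cover was 6754, 7902, 3425 and 6319 bp, and 3 of the 5 had fewer bases in both KO libraries. Most of this gap came from Ptch1 and Gli2, named here after their values were seen. Ptch1, the receptor that Hedgehog ligands inhibit, had 11812, 13814, 4712 and 11658 bp, and Gli2, a transcriptional effector, had 7966, 8558, 3082 and 7019 bp. At both genes KO_401 was close to WT_407 and KO_399 far below it. For the 7 families, 6 means had an exact permutation p of 0.333 and the receptors 0.667. No family was tested against another.

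**Figure D2:**
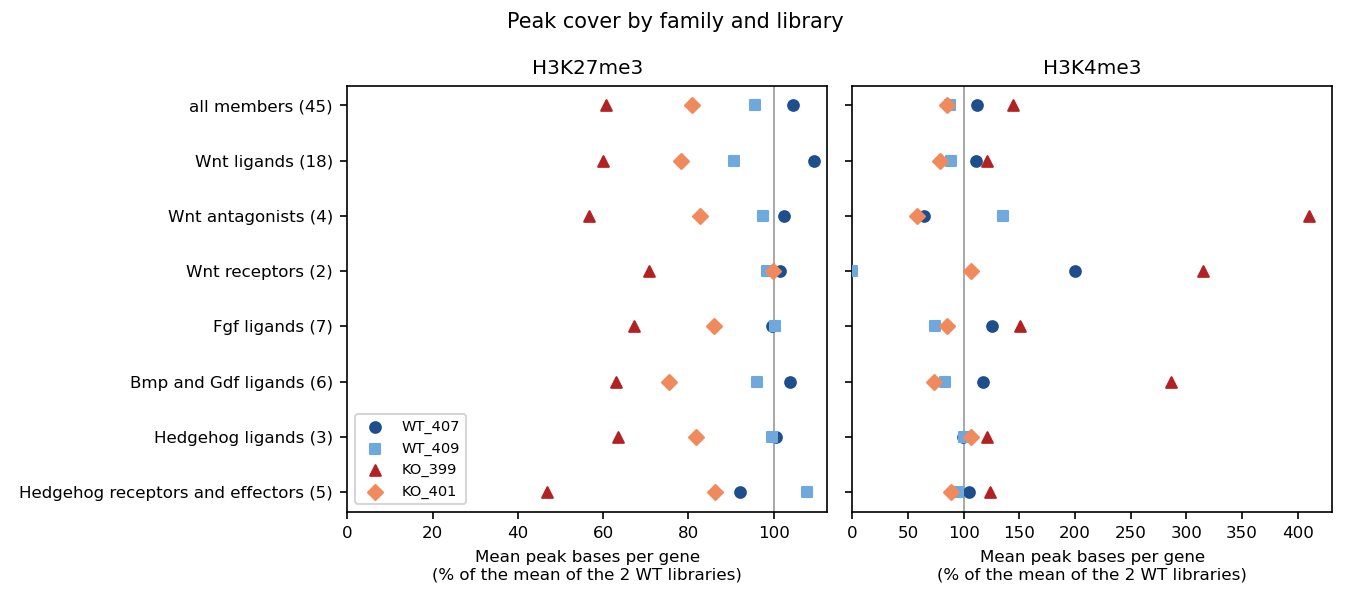
Mean peak bases per gene in each library, as a percent of the mean of the 2 WT libraries (x axis), for all 45 genes and each family (y axis, number of genes in brackets). For H3K27me3 (left) both KO points lie left of the WT points in 6 of 7 families, and for H3K4me3 (right) KO_399 is the highest point in every family while KO_401 lies between 57.7% and 106.9%.

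Of the bases with H3K27me3 in both WT libraries, those missing from the KO lists lay mainly at the edges of covered stretches. Each stretch was cut at the window border, and a break between WT peaks also made an edge. The edges are thus not always the outer ends of domains. Of 377973 bp covered in both WT libraries around the 45 genes, KO_399 kept 67.8% and KO_401 87.1%. In KO_399, 22.1% of these bases were lost from the edges of stretches that were kept, 6.99% with whole stretches, and 3.08% in gaps inside a stretch. In KO_401 the shares were 8.44%, 3.80% and 0.662%. Edges were shorter at 45 genes in KO_399 and at 41 in KO_401. Any lost base counted here, and neither these counts nor the shares of lost bases were worked out for other genes. KO_399 also had the smallest H3K27me3 cover over the whole genome, so the counts show nothing particular to these genes. New cover was rare: 99.9% of the KO_399 bases and 97.8% of the KO_401 bases were also covered in WT_407. For comparison, 85.4% of the WT_407 bases were covered in WT_409 and 93.4% the other way round. The KO domains were thus nested in the WT domains, KO_399 inside KO_401 at 98.9% of its bases.

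Cover was also read by distance from the start site. Within 1 kb of the 37 starts the mean share of bases under H3K27me3 was 92.0%, 91.7%, 81.6% and 90.6%, or 93.7% of the WT level in KO. From 1 to 5 kb before the start it was 48.8%, 45.7%, 19.5% and 35.7% (58.4% of WT), and from 1 to 5 kb after it 65.1%, 61.7%, 40.1% and 56.3% (76.1%). The KO level was lower still at 5 to 10 kb. Before the start the shares were 19.7%, 13.7%, 3.90% and 11.2% (45.3% of WT), with KO_401 close to WT_409. After the start they were 18.5%, 13.6%, 3.67% and 6.98% (33.2%). Each of these 5 differences had an exact permutation p of 0.333. Over 4115 starts of genes with H3K27me3 in all 4 libraries, the KO level was 85.9% of WT within 1 kb, 60.0% and 65.9% at 1 to 5 kb before and after the start, and 60.5% and 63.4% at 5 to 10 kb. The signalling starts therefore kept a larger share near the start and a smaller one at 5 to 10 kb, a difference that was not tested. Within 1 kb of the 4115 starts the cover was 67.6% in WT_407 and 68.5% in WT_409, so the sets began from unlike levels.

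**Figure D3:**
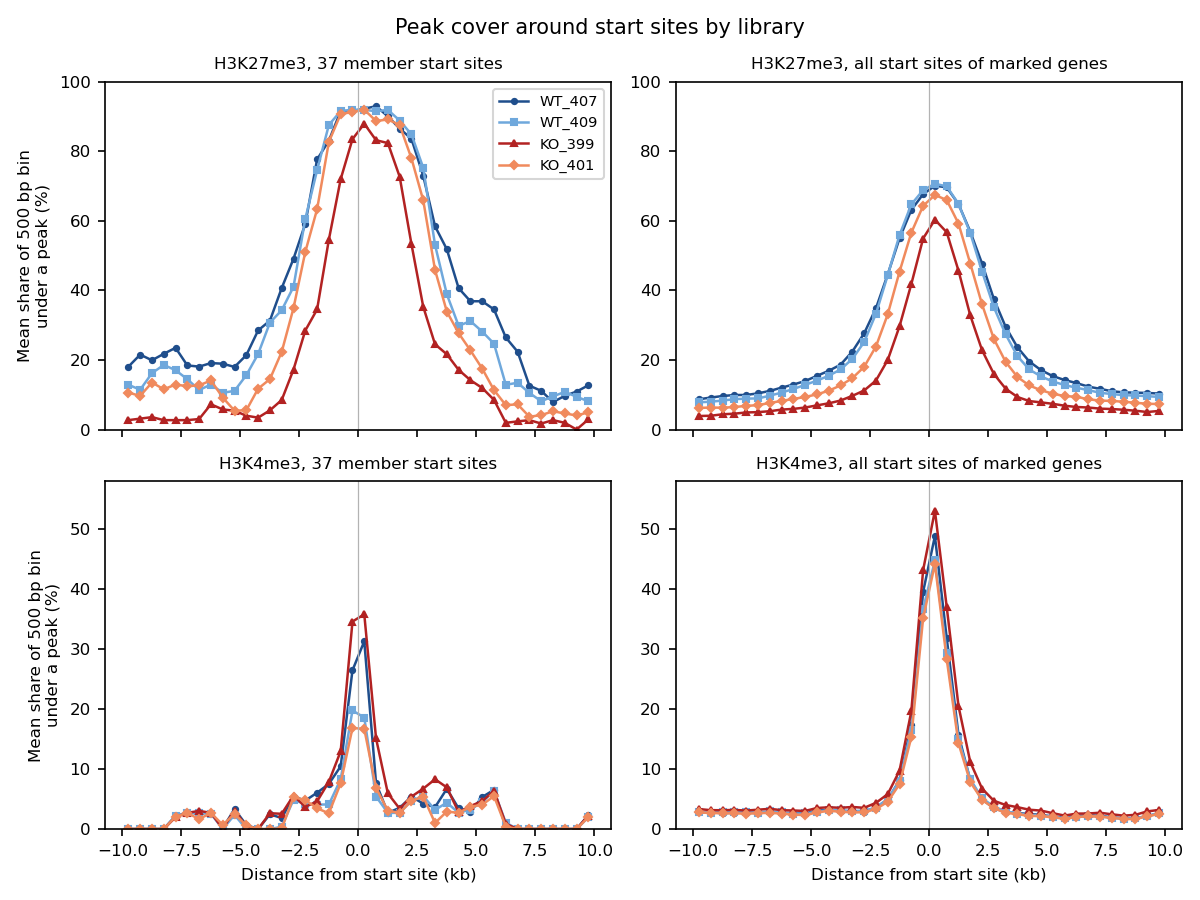
Mean share of each 500 bp bin under a peak (y axis, %) by distance from the start site (x axis, kb), for H3K27me3 (top) and H3K4me3 (bottom), at the 37 signalling starts (left) and at starts of all genes with H3K27me3 in every library (right). The H3K27me3 curves of the 37 starts meet above 80% at the centre and separate on the flanks, with KO_399 the narrowest.

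**Figure D4:**
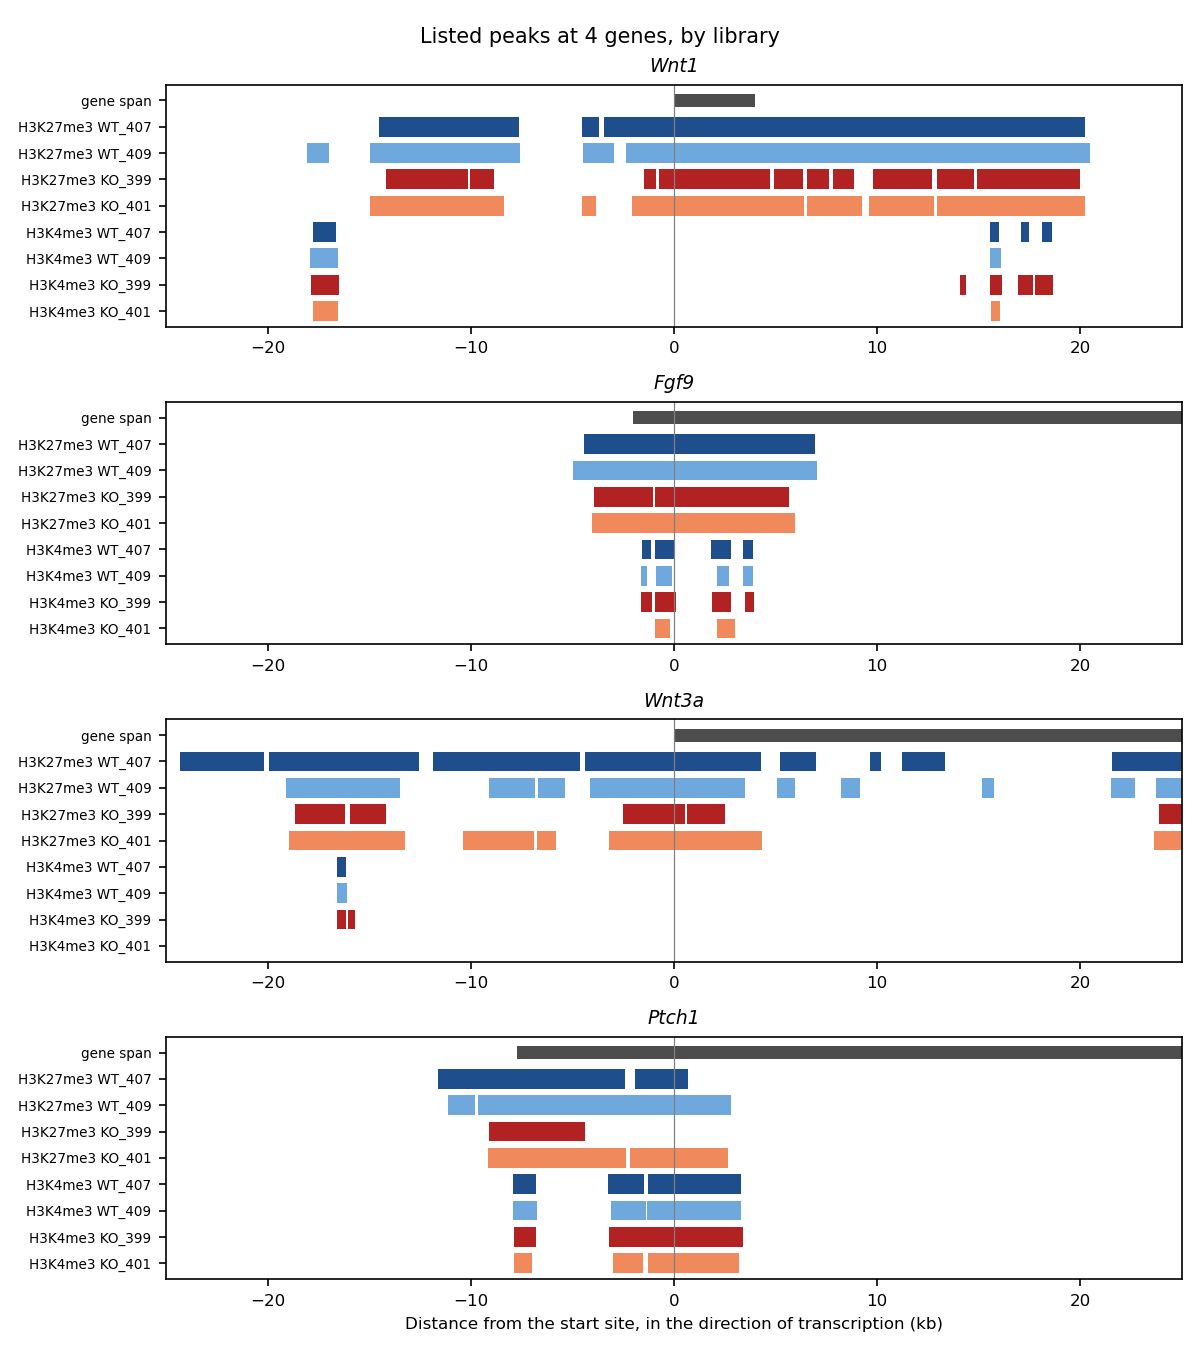
Listed peaks at Wnt1, Fgf9, Wnt3a and Ptch1 by library and mark, drawn as bars by distance from the start site (x axis, kb), with the gene span in grey. The Wnt1 domain is broken into more pieces in the KO lists, and KO_399 has H3K4me3 but no H3K27me3 over the Ptch1 start. Several Wnt3a peaks of WT_407 away from the start are missing from KO_399, and some of these are missing from WT_409 too.

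The authors' fold at the strongest H3K27me3 peak of each gene was also lower in the KO lists. Its median over the 45 genes was 15.4, 16.2, 8.60 and 11.8. At Wnt1 it was 21.3, 21.8, 11.9 and 15.8. Folds from separate lists are not on a common scale, so the place of each peak within its own list is given as well. The median percentile of the 45 genes in their lists was 92.5, 87.1, 77.1 and 84.1, and that of Wnt1 was 99.9, 98.9, 99.2 and 99.2. The lowest gene stood at percentile 46.3, 59.6, 34.4 and 39.4. Wnt1 was near the top in all 4 lists, while the genes as a group ranged from the middle or below to the top.

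H3K4me3 near the signalling genes was sparse and weak. It was present in all 4 libraries at 15 of the 45 genes, against 64.3% of all protein-coding genes and 68.7% of the genes with H3K27me3 in all 4 libraries. At 11 genes no library had a peak: Wnt1, Wnt4, Wnt7b, Wnt8b, Wnt16, Fgf4, Fgf5, Fgf10, Shh, Sfrp1 and Sfrp5. The number of genes with a peak was 27, 21, 32 and 22, so libraries of the same genotype differed by more than the genotype means. Mean cover per gene was 969, 762, 1250 and 733 bp (exact permutation p = 1). KO_399 was the highest library at 26 of the 34 genes with H3K4me3 in any library, beside 72.4% of all such genes. The median fold at the strongest peak was 7.13 to 9.58 across libraries, and the median percentile within a list was 24.0 to 33.8. Requiring a fold of at least 10 left 6 genes with H3K4me3 in all 4 libraries.

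**Figure D5:**
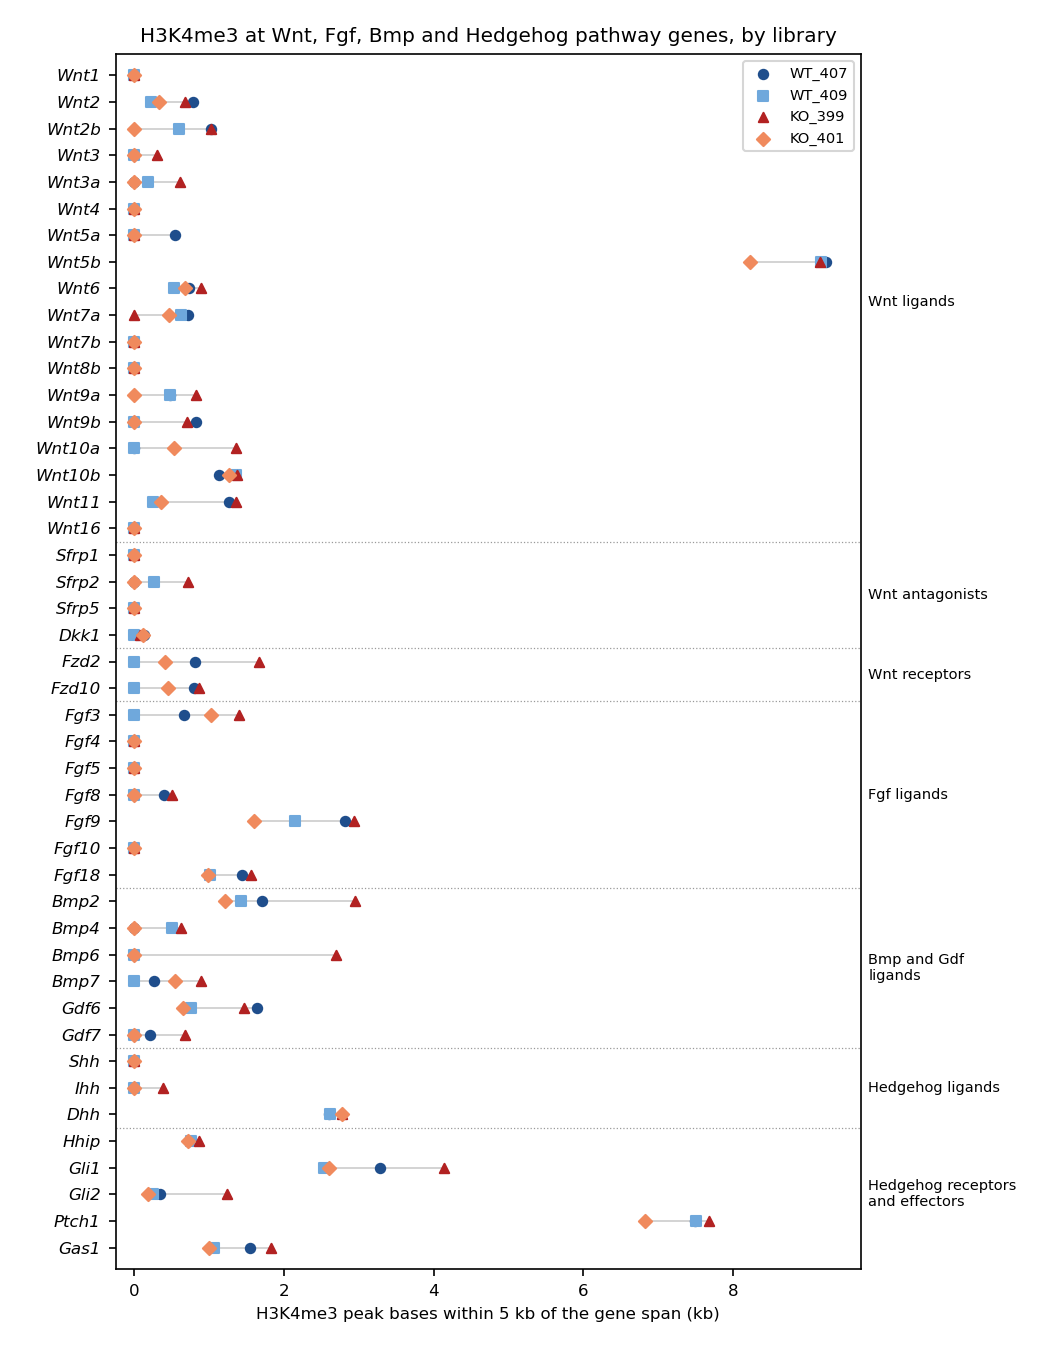
H3K4me3 peak bases (kb, x axis) within 5 kb of each of the 45 genes (y axis, grouped by role), with 1 point per library. Most genes lie under 2 kb, 11 sit at 0 in every library, and Wnt5b and Ptch1 stand out above 6 kb in all 4.

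Of the Wnt ligands, 5 had H3K4me3 in all 4 libraries. Wnt2 had 786, 228, 680 and 335 bp, Wnt6 had 734, 538, 891 and 674 bp, and Wnt11 had 1262, 249, 1357 and 357 bp. At Wnt11 the pair WT_407 and KO_399 was high and the pair WT_409 and KO_401 low, a split that crosses the genotypes. Wnt10b, a ligand studied in bone and hematopoietic cells, had 1131, 1356, 1372 and 1265 bp. Its peak lay about 5.5 kb after the RefSeq start and had an authors' fold of 27.2 to 39.5, well above the median of the group. No H3K27me3 lay under it in WT_407, KO_399 or KO_401, and 67.4% of it was covered in WT_409. Wnt5b had the largest cover, with 9246, 9170, 9157 and 8232 bp, but its widest peak covers the start of Fbxl14, an F-box gene inside the Wnt5b span, and cannot be assigned to Wnt5b. The upstream start of Wnt5b also had H3K4me3 and H3K27me3 in each library.

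Among the Fgf ligands, Fgf9 had 2821, 2149, 2941 and 1603 bp and Fgf18 had 1436, 1010, 1561 and 981 bp of H3K4me3. All Fgf9 peaks lay fully under H3K27me3, in 4 separate patches in WT_407, WT_409 and KO_399 and 2 in KO_401. Bmp2, a bone-inducing ligand, had 1702, 1433, 2946 and 1210 bp, and Gdf6 had 1636, 762, 1473 and 645 bp. None of these 4 genes separated the genotypes. Dhh had 2608 and 2620 bp in WT and 2771 and 2777 in KO. Neither of its peaks lay at its start: 1 lay about 4.5 kb after it, and the other at the far end of the gene overlaps Rhebl1.

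The Hedgehog receptors and effectors differed from the ligands in that all 5 had H3K4me3 in all 4 libraries, with a family mean of 2679, 2420, 3150 and 2266 bp. Ptch1 had 7493, 7502, 7675 and 6819 bp, with a peak over its start in every library (4596, 4630, 6589 and 4444 bp wide). H3K27me3 covered 42.8%, 88.9% and 88.5% of that peak in WT_407, WT_409 and KO_401, and none of it in KO_399. This was seen in 1 of the KO libraries, and KO_401 resembled WT_409. Hhip, a membrane decoy that binds Hedgehog ligands, had 738, 755, 860 and 716 bp at its start, 88.8% to 100% of it under H3K27me3. Gas1, a co-receptor, had 1540, 1061, 1826 and 1003 bp, also with a peak at its start in each library. Gli2 had 344, 247, 1244 and 188 bp, and KO_399 stood apart from the rest. Gli1, an effector and a target of the pathway, had 3279, 2534, 4143 and 2606 bp. A peak of 4757 to 5752 bp beyond the lower end of the Gli1 span overlaps Arhgap9, a neighbour expressed in blood cells. It had no H3K27me3 under it and supplied the larger part of that cover in each library.

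Few genes separated the genotypes in H3K4me3. There were 4 whose KO libraries both exceeded both WT libraries, beside 22.1% of the 15167 genes with H3K4me3 in any library. There were 2 with fewer, beside 3.63%. The 4 were Wnt10a, Fgf3, Bmp7 and Dhh, the last with values given above. Wnt10a was the only gene of the 45 with H3K4me3 in both KO libraries and in neither WT library, a pattern shown by 0.415% of the 15167 genes. Its peaks covered 1361 bp in KO_399 and 537 in KO_401, all under H3K27me3, with folds of 5.21 to 6.72, just above the limit of the lists. Fgf3 had 665, 0, 1396 and 1027 bp and Bmp7 had 268, 0, 893 and 548 bp. At both the mark was already present in WT_407. Fewer bases in KO were found at Wnt5b, given above, and at Wnt7a, with 712, 619, 0 and 470 bp in a peak at its start that also covers the start of Gm30437. With a gap of at least 500 bp between the genotypes required, 1 of the 4 genes with more remained, and leaving out WT_407 or KO_401 gave 11 or 27. Peaks seen in KO_399 alone were at Wnt3, Bmp6 and Ihh (299, 2691 and 387 bp; 1 of the 3 Bmp6 peaks overlaps Txndc5), and 1 in WT_407 alone was at Wnt5a (548 bp).

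Most H3K4me3 peaks near these genes lay inside H3K27me3 domains. Fully under H3K27me3 were 31 of 44, 27 of 37, 36 of 56 and 24 of 36 peaks. Bases under both marks averaged 628, 488, 744 and 443 bp per gene (exact permutation p = 1), so the genotypes were not separated. The median KO share of H3K27me3 cover was 75.1% at the 15 genes with H3K4me3 in all 4 libraries, 70.4% at the 19 with it in some, and 72.2% at the 11 with none. In KO_401 alone the medians of these 3 sets were 85.0%, 74.9% and 85.4%.

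A further list of 118 genes of the same pathways gave the setting. H3K27me3 was present in any library at 84 of them and in all 4 at 70, and 66 of the 84 had fewer bases in both KO libraries, none more. Their median KO level was 65.9% of WT, beside 71.9% for the 45 genes. This list also held genes whose H3K27me3 was listed in both WT libraries and in neither KO library. They were Wnt8a with 4551 and 3079 bp in WT_407 and WT_409, Fgf6 with 3193 and 1227, Fgf13 with 3424 and 4177, and Disp2 with 1759 and 1851. How often this pattern occurs among all genes with H3K27me3 was not worked out. Both KO lists covered less of the genome than both WT lists, so these genes show nothing particular to the pathways. H3K4me3 was present in all 4 libraries at 80 of the 118. Frzb, a secreted Wnt antagonist, was the 1 gene of the 118 with H3K4me3 in both KO libraries and in neither WT library, at 1726 bp in KO_399 and 1062 in KO_401. It kept H3K27me3 in all 4 libraries, with 6019, 5819, 3293 and 5506 bp.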

How the data were processed

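The submitters' processing notes name Bowtie2, MACS2, SAMtools, deepTools, Trim Galore and FastQC, without versions, and build mm10. ChIP-seq of 2 marks in 4 mice gave 8 narrowPeak lists, with peaks called per library; per the labels, chromatin was fixed in 1% formaldehyde, sheared to 100 to 300 bp and read for 75 bp. Of the 12 labelled libraries, the 4 inputs were not used here, and no label says whether input was the control in calling. The deposited score, the deposited fold (a ratio to background) and the deposited −log10 p and −log10 q are the authors' values per peak. They were used to rank or filter within a list, to describe folds per library, and to solve the background reads. No deposited fold is under 5 and peak numbers are skipped, so lists were filtered after calling, which no label records. The lists kept 24.8% to 36.5% of the numbered H3K27me3 peaks and 66.7% to 78.0% of the H3K4me3 peaks.

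Peak bases were summed within 5 kb of gene spans (RefSeq, GRCm38.p6) with Python 3.11.15, pandas 2.3.3 and numpy 2.4.6, and a mark was present from 1 bp. The span table gives no exons. WT and KO were compared over libraries by two-sided exact permutation tests with 6 labelings, and a gene was counted as fewer or more when the libraries of the genotypes did not overlap. Background reads at summits were solved from the deposited fold and −log10 p (Poisson, within 0.001, −log10 p under 300). The code was tested on simulated peaks. The members and gene lists were chosen with earlier results of these data known. Named are the 10 genes with the lowest and 5 with the highest KO share of H3K27me3, the 5 with the widest WT peak, and those with H3K4me3 in all 4 libraries or separated between genotypes; values of Fzd10, Wnt3, Wnt5a and Ihh were added after they were seen. Windows of 2 and 10 kb, a fold of 10, equal list lengths, merged windows and leaving out each library were tried. Intervals for counting error could not be given, since read counts per peak were not used.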

Additional observations from a re-analysis of the deposited data

How the results depend on the processing

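Of 230 alternative values, 25 reversed and 10 counts moved by over 1.5 times. The other 195 kept their direction, or for counts stayed within 1.5 times, but their size could move far. The H3K27me3 difference of the means (WT minus KO) stayed positive in every setting, with 1812 to 3710 bp when 1 library was left out, 604 bp with lists trimmed to the same covered length, and 4948 bp with a fold of at least 10. The fold of 10 put the KO level of H3K27me3 at 25.3% (Hedgehog receptors and effectors) to 55.3% (Hedgehog ligands) of WT across families. The trimming keeps 2082 WT_407 peaks but all 6542 of KO_399. Under it, the KO level of H3K27me3 reversed for Bmp and Gdf ligands (100.3% of WT), Wnt antagonists (201.6%) and Wnt receptors (117.6%). Genes with fewer bases in KO numbered 20, and those with the mark in all 4 libraries were 28 for H3K27me3 and 6 for H3K4me3. For H3K4me3 the same trimming gave 41.0% of WT for Bmp and Gdf ligands, 73.1% for Fgf ligands, 87.6% for Hedgehog receptors and effectors, 89.7% for Wnt antagonists and 53.4% for Wnt receptors. WT minus KO became 158 bp for H3K4me3 cover, 76.6 bp for its widest peak and 193 bp for bases under both marks. A fold of at least 10 left 10 genes with H3K27me3 and 6 with H3K4me3 in all 4 libraries and 2 with more H3K4me3 in KO, and turned bases under both marks to 109 bp and Wnt ligand H3K4me3 to 108.7% (102.2% with a 10 kb window, against 99.99% as reported). Genes with more H3K4me3 in KO numbered 1 with the same covered length, 1 with a gap of 500 bp, and 4 to 27 when 1 library was left out, the highest without KO_401.

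Leaving out 1 library moved H3K4me3 cover (WT minus KO) from -385 to 133 bp, its widest peak from -310 to 53.2 bp and bases under both marks from -186 to 115 bp. The positive values came without KO_399, and 34.9 bp under both marks without WT_409. By family, the H3K4me3 range was 73.7% to 285.8% for Bmp and Gdf ligands, 85.1% to 158.5% for Fgf ligands (94.0% without WT_409), 88.9% to 123.5% for Hedgehog receptors and effectors, 57.7% to 410.2% for Wnt antagonists and 78.7% to 121.3% for Wnt ligands (112.4% without WT_407). No paired analysis was possible because the WT and KO mice share no replicate number. With 2 libraries a genotype, no p under 0.333 can be reached, and a peak below the fold limit of the lists cannot be seen.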
